A study of Homo sapiens with 27 samples.

Results

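Genes of the unfolded protein response were followed in the human breast cancer line MDA-MB-231 while O-GlcNAc, a sugar on proteins inside the cell, was kept from being added or removed. The genes are 10 chaperones, folding enzymes, degradation factors and regulators of the endoplasmic reticulum (ER): HSPA5, HSP90B1, CALR, PDIA4, PDIA6, DNAJB9, DNAJC3, HERPUD1, SEL1L and XBP1. A probe set was taken where the platform annotation names 1 of these genes and no other gene, which gave 21 of 22277 probe sets and 10 of 11963 genes. A further 2 probe sets name HSP90B1 together with a microRNA gene and were left out. Cells received DMSO as the vehicle, 5SGlcNAc at 50 µM, which inhibits O-GlcNAc transferase (OGT), or Thiamet-G at 25 µM, which inhibits O-GlcNAcase (OGA). All groups share the line and a medium of DMEM with 10% FBS. Of 27 Affymetrix arrays, 9 are of 48 h, 3 per treatment, and 18 are single arrays of each treatment at 0, 2, 4, 6, 8 and 24 h. Values are log2 levels. The 48 h arrays are a set of their own in the deposited values, so no level of 48 h is set against a level of another time.

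The ER folds secreted and membrane proteins, and when unfolded proteins build up in it, the sensors IRE1, PERK and ATF6 start the unfolded protein response. ATF6 and the spliced form of XBP1 then raise the transcription of chaperones, of folding enzymes and of the machinery that sends misfolded proteins back to the cytosol for degradation (ERAD), while PERK slows translation and raises ATF4, ATF3 and DDIT3. Secretory cells, and many tumour cells, keep this response partly active, and HSPA5 is its usual readout. Messenger RNA arrays do not show XBP1 splicing or ATF6 cleavage.

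The class is known for the ER stress response element (ERSE), a CCAAT box and CCACG held 9 bases apart, which was first described in promoters of these same chaperones, so its presence here is background and not a result. RefSeq promoters of GRCh38.p14, from 250 bases before to 50 after each start, matched all 10 members. The full element, CCAAT, any 9 bases and CCACG, was searched on both strands and found in the promoters of 5 of the 10, HSPA5, HSP90B1, CALR, PDIA6 and XBP1, and in 0.0769% of all 35116 promoters. ERSE-II, ATTGG, any 1 base and CCACG, was found in HERPUD1 and in 0.0541% of promoters. The core of the XBP1 site, TGACGTGG, was found in none of the members and in 0.729% of promoters. ERSE and ERSE-II share the CCACG end, and CGTGG in the XBP1 core is its reverse complement, but no position of a member matched more than 1 of the motifs. The windows are shown because HSP90B1, which fell with 5SGlcNAc at 48 h, and HSPA5, CALR, PDIA6 and XBP1, which did not pass that test, carry the same element. Each is written 5′ to 3′ on the gene's strand with 20 bases either side of the match, and capitals mark the match.
HSPA5, chr9:125241371-125241429, minus strand: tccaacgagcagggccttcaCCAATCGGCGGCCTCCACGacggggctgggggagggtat
HSP90B1, chr12:103930196-103930359, plus strand: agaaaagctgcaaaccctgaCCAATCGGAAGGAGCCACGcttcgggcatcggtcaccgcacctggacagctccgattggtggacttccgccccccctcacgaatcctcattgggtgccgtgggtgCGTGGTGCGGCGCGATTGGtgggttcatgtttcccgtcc
CALR, chr19:12938364-12938422, plus strand: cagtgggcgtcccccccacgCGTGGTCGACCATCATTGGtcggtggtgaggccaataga
PDIA6, chr2:10812833-10812891, minus strand: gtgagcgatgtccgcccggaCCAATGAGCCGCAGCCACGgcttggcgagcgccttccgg
XBP1, chr22:28800583-28800641, minus strand: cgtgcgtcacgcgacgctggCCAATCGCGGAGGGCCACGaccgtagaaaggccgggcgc
HERPUD1, chr16:56932005-56932055, plus strand: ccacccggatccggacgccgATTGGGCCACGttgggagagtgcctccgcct
The matches begin between 225 bases before the start, in CALR, and 52 bases before it, in XBP1. HSP90B1 holds 2 of them, 1 on each strand, and the match of CALR is on the opposite strand. A match is a description of the letters and does not show that a factor binds there.

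The treatment left its mark on the enzymes themselves at 48 h. OGA fell by 1.08 with 5SGlcNAc (limma, adjusted p = 4.16e-06) and rose by 0.62 with Thiamet-G (adjusted p = 0.000912). The labels do not call the replicates separate cultures, and p-values then reflect the spread between these arrays alone, which may be technical. RNA integrity was read from ACTB as the signal at its 3′ end less that at its 5′ end. This was 0.15 to 0.39 at 48 h and 0.42 to 0.95 at 0 to 24 h, apart from 2 arrays. These were the DMSO and Thiamet-G arrays of 4 h, at 1.64 and 1.24. For GAPDH the same difference was 0.23 in each of these 2 arrays, within the 0.14 to 0.27 of the 0 to 24 h arrays. Of the markers of the line, VIM, CD44, CAV1, MSN and AXL lay above the 96th percentile of genes in both sets of arrays, while SPARC was at the 11.8th percentile at 48 h. The 9 luminal epithelial markers were spread widely at 48 h, from the 3.7th percentile for PGR to the 98.7th for KRT18. ESR1 was at the 35.9th, while KRT8 and KRT19 were at the 94.8th and 89.2nd, so this list was not uniformly low. The 7 haematopoietic markers ran from the 4.61st percentile for PTPRC, which defines blood cells, to the 32.4th for CD3E.

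With 5SGlcNAc for 48 h, HSP90B1, PDIA4 and HERPUD1 fell and DNAJB9 rose against DMSO. The other 6 members did not pass the test, and all 6 had a negative difference. HSP90B1, the ER form of HSP90, fell by 0.36, which is 1.28-fold, and PDIA4, a disulfide isomerase, by 0.24. In bulk RNA, fewer cells with a transcript and less of it per cell cannot be told apart.

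HSPA5, or BiP, is the HSP70 of the ER lumen and holds the sensors inactive until unfolded proteins draw it away. Its level was 13.45, 13.41 and 13.41 in the DMSO arrays, 13.36, 13.34 and 13.35 with 5SGlcNAc, and 13.56, 13.45 and 13.48 with Thiamet-G. The 5SGlcNAc arrays lay below all DMSO arrays, and the Thiamet-G arrays ran from the top of the DMSO range upwards. The difference from DMSO was -0.07 (SE 0.041, n = 3 per group) with 5SGlcNAc and 0.07 with Thiamet-G, and neither passed limma's test (adjusted p = 0.304 and 0.368). The 95% interval of the 5SGlcNAc effect was -0.17 to 0.020, so a fall beyond 0.17 lies outside it.

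HSP90B1, also called GRP94, folds a narrow set of clients such as integrins and Toll-like receptors. Its level was 11.94, 11.89 and 11.86 with DMSO, 11.59, 11.48 and 11.54 with 5SGlcNAc, and 11.75, 11.74 and 11.83 with Thiamet-G. The 3 treatments did not overlap, with 5SGlcNAc lowest and Thiamet-G between. HSP90B1 fell by 0.36 with 5SGlcNAc (SE 0.047, adjusted p = 0.00195, limma), and this effect ranked 347th by size among 11963 genes. The Thiamet-G difference of -0.12 did not pass (adjusted p = 0.189). The dimmer HSP90B1 probe set read 8.68, 8.75 and 8.58 with DMSO and 8.61, 8.52 and 8.69 with 5SGlcNAc, which overlap, and its difference was -0.06 (adjusted p = 0.687). Both probe sets are of the kind whose probes may match other transcripts, and with their mean the HSP90B1 fall was 0.21 on the log2 scale and no longer passed (adjusted p = 0.0535).

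CALR, or calreticulin, is a lectin that binds newly glycosylated proteins and stores calcium. Its level was 12.21, 12.14 and 12.19 with DMSO, 12.11, 12.08 and 12.07 with 5SGlcNAc, and 12.14, 12.14 and 12.13 with Thiamet-G. The 5SGlcNAc arrays again lay below DMSO, by less than the test could call: the difference was -0.09 (SE 0.038, adjusted p = 0.157, limma). With Thiamet-G it was -0.04 (adjusted p = 0.562). The other 2 CALR probe sets gave -0.22 and -0.02 with 5SGlcNAc, and neither passed.

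PDIA4 and PDIA6 are disulfide isomerases, which form and rearrange the disulfide bonds of client proteins, and PDIA6 also acts on the sensor IRE1. PDIA4 was at 11.17, 11.21 and 11.13 with DMSO, 10.88, 10.91 and 10.99 with 5SGlcNAc, and 10.99, 10.96 and 10.97 with Thiamet-G. Both inhibitors lay below DMSO with no overlap. PDIA4 fell by 0.24 with 5SGlcNAc (SE 0.043, adjusted p = 0.00810, limma) and by 0.20 with Thiamet-G (adjusted p = 0.0427). The fall with 5SGlcNAc passed in all 9 fits that left out 1 array, and the fall with Thiamet-G in none of them (adjusted p = 0.0510 to 0.136), nor with quantile normalization or median centring (adjusted p = 0.0506 and 0.126). The dimmer PDIA4 probe set was at 9.85, 9.83 and 9.84 with DMSO, 9.65, 9.70 and 9.72 with 5SGlcNAc, and 9.57, 9.58 and 9.54 with Thiamet-G. It too lay below DMSO with both inhibitors, and in the fit of all probe sets its fall of 0.28 with Thiamet-G passed (adjusted p = 0.0151) while its difference of -0.15 with 5SGlcNAc did not (adjusted p = 0.0553). In that fit the brighter PDIA4 set passed with 5SGlcNAc (adjusted p = 0.0125) and not with Thiamet-G (adjusted p = 0.0642), so the 2 probe sets order the inhibitors differently.

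PDIA6 was at 12.64, 12.60 and 12.71 with DMSO, 12.57, 12.54 and 12.60 with 5SGlcNAc, and 12.58, 12.68 and 12.61 with Thiamet-G. The ranges touch or overlap, and the differences of -0.08 and -0.03 did not pass (adjusted p = 0.312 and 0.796, limma). All 4 PDIA6 probe sets were below DMSO with 5SGlcNAc, by 0.07 to 0.16 on the log2 scale, and none passed.

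DNAJB9 and DNAJC3 are J proteins, co-chaperones that direct HSPA5 to its clients. DNAJB9, or ERdj4, which also returns HSPA5 to IRE1, was at 10.45, 10.50 and 10.52 with DMSO, 10.65, 10.66 and 10.68 with 5SGlcNAc, and 10.45, 10.39 and 10.45 with Thiamet-G. It alone of the 10 was highest with 5SGlcNAc. DNAJB9 rose by 0.17 with 5SGlcNAc (SE 0.039, adjusted p = 0.0233, limma), and the Thiamet-G difference was -0.06 (adjusted p = 0.438). The rise did not pass without DMSO replicate 1 or 2 or without any of the 3 5SGlcNAc replicates (adjusted p = 0.0669 to 0.0822). The dimmer DNAJB9 probe set had a 5SGlcNAc difference of 0.24 that did not pass (adjusted p = 0.132).

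DNAJC3, or P58IPK, which also restrains PERK, was at 9.03, 8.72 and 8.84 with DMSO, 8.66, 8.64 and 8.72 with 5SGlcNAc, and 8.65, 8.85 and 8.63 with Thiamet-G. The DMSO arrays spread widely, with an SD of 0.16. The differences of -0.19 and -0.15 were therefore uncertain (SE 0.084) and did not pass (adjusted p = 0.193 and 0.352, limma).

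HERPUD1 and SEL1L belong to ERAD. HERPUD1, a membrane scaffold of the HRD1 ligase complex, was at 11.44, 11.53 and 11.45 with DMSO, 11.22, 11.26 and 11.36 with 5SGlcNAc, and 11.55, 11.46 and 11.45 with Thiamet-G. The 5SGlcNAc arrays lay below all others, and DMSO and Thiamet-G overlapped. HERPUD1 fell by 0.19 with 5SGlcNAc (SE 0.052, adjusted p = 0.0455, limma) and differed by 0.01 with Thiamet-G (adjusted p = 0.915). The fall is close to the threshold: it did not pass with median centring (adjusted p = 0.1003) or without any 1 of the DMSO replicates, 5SGlcNAc replicate 1 or 2, or Thiamet-G replicate 3 (adjusted p = 0.0595 to 0.152). SEL1L, the adaptor that holds the same ligase together, was at 10.70, 10.60 and 10.67 with DMSO, 10.46, 10.52 and 10.42 with 5SGlcNAc, and 10.55, 10.42 and 10.39 with Thiamet-G. Both inhibitors lay below DMSO without overlap. The SEL1L differences of -0.19 and -0.20 did not pass (adjusted p = 0.0571 and 0.0791), and its 3 dimmer probe sets gave -0.22, 0.05 and 0.01 with 5SGlcNAc.

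XBP1 encodes the transcription factor that IRE1 activates by splicing. Its level was 9.71, 9.75 and 9.73 with DMSO, 9.60, 9.58 and 9.55 with 5SGlcNAc, and 9.91, 9.72 and 9.85 with Thiamet-G. It stood lowest with 5SGlcNAc, and the Thiamet-G arrays overlapped DMSO. The XBP1 differences of -0.15 and 0.10 from DMSO did not pass (adjusted p = 0.0970 and 0.338, limma).

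Counted together, 1 of the 10 members rose and 3 fell with 5SGlcNAc against DMSO. Among all genes tested, 10.2% passed in either direction, 2.92% as higher and 7.32% as lower. The members' median difference was -0.17, beside 0.010 over all genes. As the members were chosen with earlier results of these data known, this contrast is a description and not a test. The 3 arrays of 5SGlcNAc and of DMSO did not overlap for 8 members, DNAJB9 higher and 7 lower, and they did not overlap for 31.2% of all genes. With Thiamet-G, 1 member fell and none rose, beside 3.49% of genes in either direction, 0.476% higher and 3.01% lower. The members' median was -0.05 against -0.01 over all genes, and 3 members did not overlap with DMSO, HSP90B1, PDIA4 and SEL1L, beside 21.5% of genes. In the fit of all 19064 single-gene probe sets, 7.52% passed with 5SGlcNAc and 2.10% with Thiamet-G. Scaling shifted the split of all genes: with 5SGlcNAc 349 were higher and 876 lower, but 506 and 759 with quantile normalization and 480 and 682 with median centring, and with Thiamet-G 57 and 360 became 76 and 212, and 60 and 175. Both comparisons share the DMSO arrays.

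**Figure D1:**
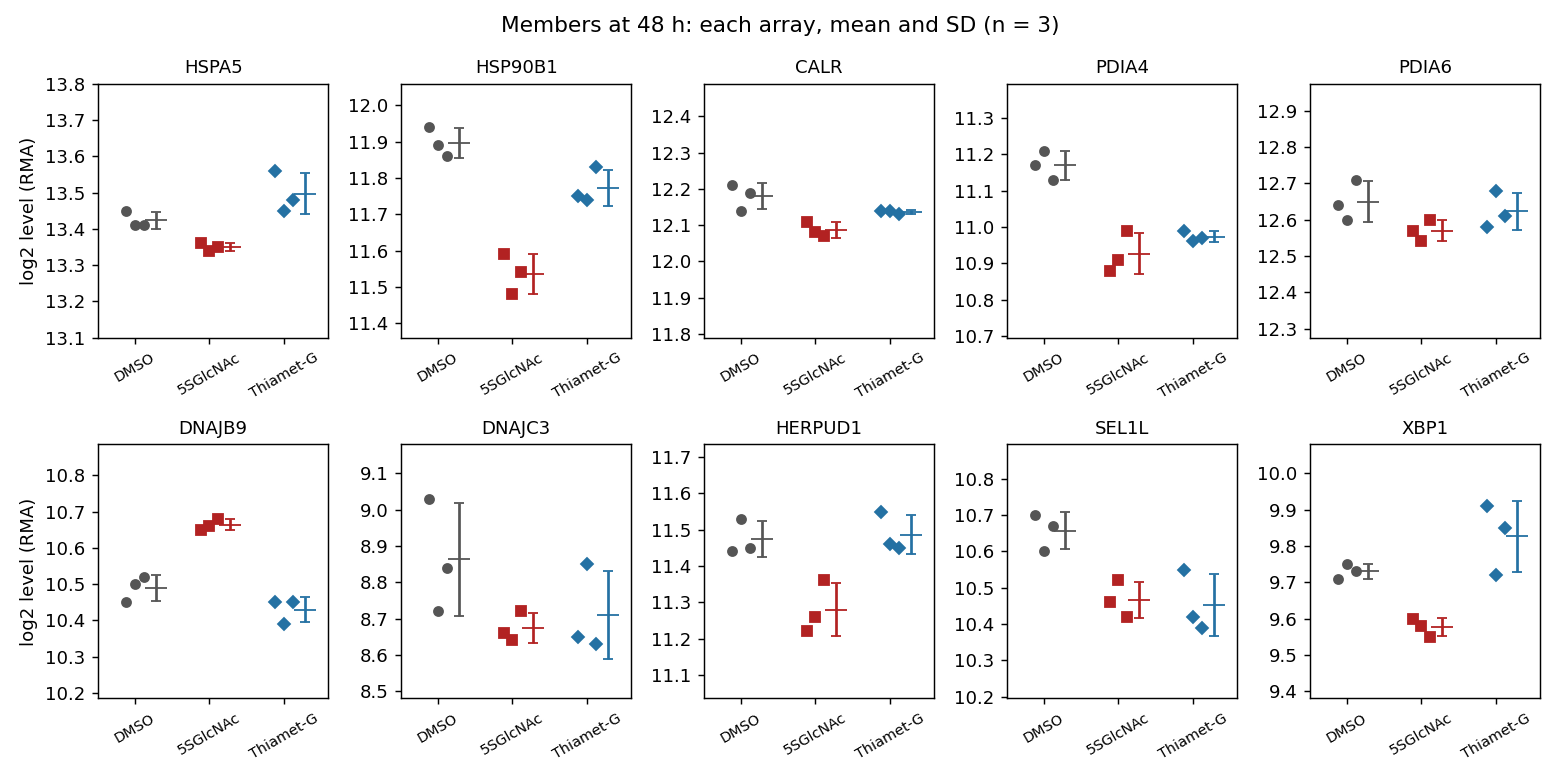
Log2 level of the 10 members at 48 h, with each array as a point and the mean and SD (n = 3) beside it, for DMSO, 5SGlcNAc and Thiamet-G; every panel spans the same number of log2 units. HSP90B1 separates all 3 treatments, DNAJB9 is highest with 5SGlcNAc, and HSPA5 and XBP1 are lowest with it.

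Set directly against Thiamet-G at 48 h, 5SGlcNAc left HSPA5, HSP90B1, HERPUD1 and XBP1 lower and DNAJB9 higher. The inhibitors act on opposing enzymes and were given at different doses, 50 and 25 µM. XBP1 differed by -0.25 (SE 0.052, adjusted p = 0.0127, limma) and DNAJB9 by 0.23 (adjusted p = 0.00508), with no overlap of arrays. HSP90B1 differed by -0.24 (adjusted p = 0.0103), HERPUD1 by -0.21 (adjusted p = 0.0294) and HSPA5 by -0.15 (adjusted p = 0.0458). For XBP1 and HSPA5 neither inhibitor passed against DMSO, and their estimates lay on opposite sides of it. The brighter PDIA4 probe set passed as lower with both against DMSO, but its Thiamet-G call was lost whenever an array was left out. It differed by -0.05 between the inhibitors, with a 95% interval of -0.14 to 0.051. The dimmer PDIA4 set had the opposite order without overlap, at 9.65 to 9.72 with 5SGlcNAc and 9.54 to 9.58 with Thiamet-G. SEL1L differed by 0.01, with an interval of -0.11 to 0.14.

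Of all genes, 13.7% passed in this comparison, 6.87% as higher and 6.79% as lower, and in 29.3% the arrays did not overlap, as in 6 members. Among probe sets 9.98% passed, and 1 of the 3 dimmer PDIA6 sets passed there at -0.22 (adjusted p = 0.0250). The calls of HSP90B1, XBP1 and DNAJB9 remained in all 9 fits without 1 array. DNAJB9 lost its call with the mean of its probe sets (0.16, adjusted p = 0.0939). HERPUD1 did not pass without 5SGlcNAc replicate 1 or 2 or Thiamet-G replicate 1 or 3 (adjusted p = 0.0507 to 0.105). HSPA5 passed in 1 of the 9, the fit without Thiamet-G replicate 2, with adjusted p of 0.0307 to 0.126 over the 9, and did not pass with quantile normalization or median centring (adjusted p = 0.0973 and 0.0544).

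**Figure D2:**
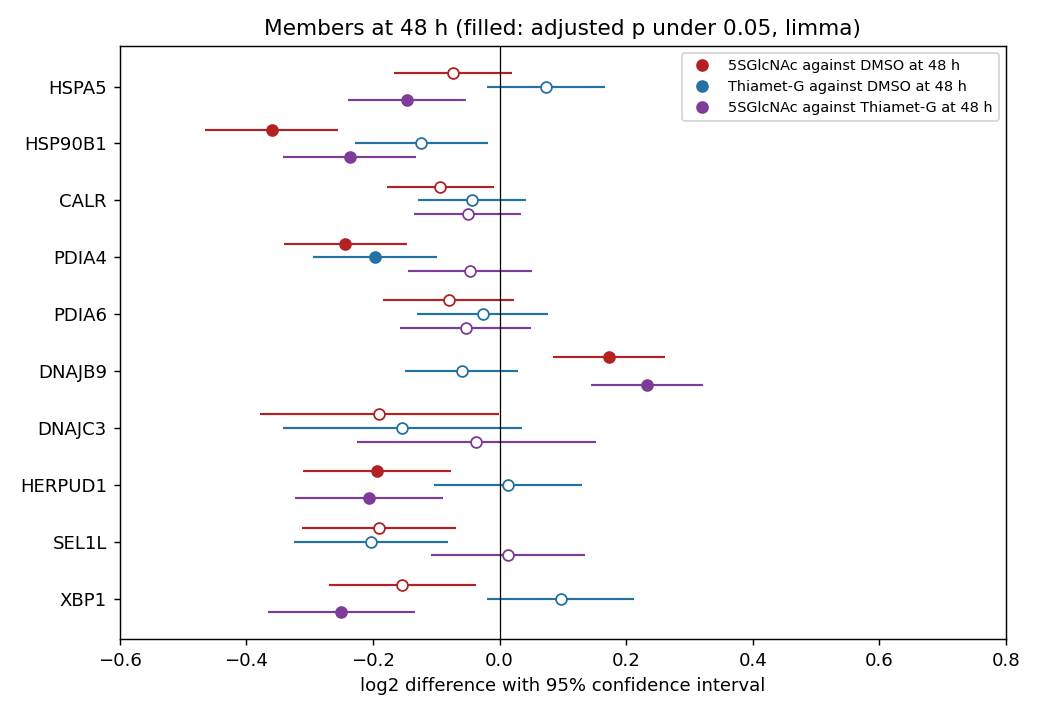
Log2 difference of each member at 48 h with its 95% confidence interval (9 arrays, limma), for both inhibitors against DMSO and for 5SGlcNAc against Thiamet-G; filled points have an adjusted p under 0.05. HSP90B1 has the lowest 5SGlcNAc estimate, -0.36, and DNAJB9 is the member whose interval with 5SGlcNAc lies above 0.

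Markers of other cell types moved at 48 h too. The mean level of the 9 luminal markers was 8.88 to 8.94 in the DMSO arrays, 8.76 to 8.79 with 5SGlcNAc and 8.91 to 8.92 with Thiamet-G. KRT19 fell by 0.42 (adjusted p = 0.00109, limma) and CDH1 by 0.29 (adjusted p = 0.0476) with 5SGlcNAc, 2 of the 9, beside 10.2% of all genes. The 7 haematopoietic markers had a mean of 5.94 to 6.07, 5.94 to 5.98 and 5.91 to 5.95 in the same order, and the 6 fibroblast markers 6.75 to 6.86, 6.74 to 6.90 and 6.86 to 7.05. LUM, or lumican, a proteoglycan of connective tissue, was the 1 fibroblast marker of the 6 called, and fell by 0.49 with 5SGlcNAc (adjusted p = 0.0476). LUM and CDH1 were dim, at the 24.3rd and 24.7th percentiles of genes at 48 h. Set against Thiamet-G, LUM was lower with 5SGlcNAc by 0.95 on the log2 scale (adjusted p = 0.00192), as were KRT19, CDH1 and EPCAM of the luminal markers, while of the haematopoietic markers LYZ was lower and CD79A higher. The part of these markers in the members' changes was not tested. The ACTB 3′ minus 5′ signal at 48 h was 0.22 to 0.33 with DMSO, 0.15 to 0.25 with 5SGlcNAc and 0.25 to 0.39 with Thiamet-G. Both inhibitors overlapped DMSO, but they touched each other only at 0.25. The part of RNA integrity in the members' changes was not tested.

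The remaining ER genes showed how far the changes extended at 48 h. Of all genes, 10.2% passed with 5SGlcNAc, 2.92% as higher and 7.32% as lower. With 5SGlcNAc, 1 of 26 other chaperones and folding enzymes rose and none fell: ERO1B, an oxidase that recharges disulfide isomerases, rose by 0.23 (adjusted p = 0.0466, limma). Of 15 ERAD genes none passed, with 4 at an unadjusted p under 0.05, beside 3049 of all 11963 genes. Of 11 sensors and their processing factors, CREB3L2 and ATF6B, both ER-bound transcription factors, fell by 0.29 and 0.23 (adjusted p = 0.00338 and 0.0467), and CREB3, a factor of the same family, rose by 0.19 (adjusted p = 0.0463). Of 8 targets of the PERK arm, ATF3, a stress-induced transcription factor, rose by 0.29 (adjusted p = 0.0179). In the 23 genes of protein translocation and glycan transfer, SRPRB, a subunit of the signal recognition particle receptor, rose by 0.28 (adjusted p = 0.00639) and GANAB, a glucosidase that trims new glycans, fell by 0.21 (adjusted p = 0.0180). None of 16 genes of ER to Golgi transport passed, with 2 at an unadjusted p under 0.05. The medians of the 6 lists lay between -0.10 and 0.07, beside -0.17 for the members and 0.010 for all genes. Since members and lists were chosen with earlier results known, their order is not a test.

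With Thiamet-G, ATF3 rose by 0.54 (adjusted p = 0.00482, limma), the sole rise in these lists. SDF2L1, a partner of HSPA5 and DNAJB11, fell by 0.35 (adjusted p = 0.00755) and FKBP14, a prolyl isomerase, by 0.18 (adjusted p = 0.0438). EDEM2 and EDEM1, which trim mannose from misfolded glycoproteins, fell by 0.30 and 0.27 (adjusted p = 0.0233 and 0.0124), as 2 of 15 ERAD genes. Of all genes, 3.49% passed with Thiamet-G, 3.01% as lower. WFS1, a membrane protein that restrains ATF6, fell by 0.34 (adjusted p = 0.0176), and KDELR1, a receptor that returns ER residents, by 0.20 (adjusted p = 0.0319). Between the inhibitors, 6 of 15 ERAD genes were higher with 5SGlcNAc, with EDEM2 at 0.32, RNF5 at 0.24 and NPLOC4 at 0.24, and DERL2 was lower at -0.17. Of the 26 other chaperones, 4 were higher and none lower, among them ERO1B, SDF2L1 and FKBP14 at 0.22 each. Of the members, 4 were lower and 1 higher in that comparison. Of all genes, 13.7% passed in it, 6.87% as higher and 6.79% as lower. ATF3 differed by -0.25 and PPP1R15A, the phosphatase subunit that ends PERK signalling, by 0.18.

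**Figure D3:**
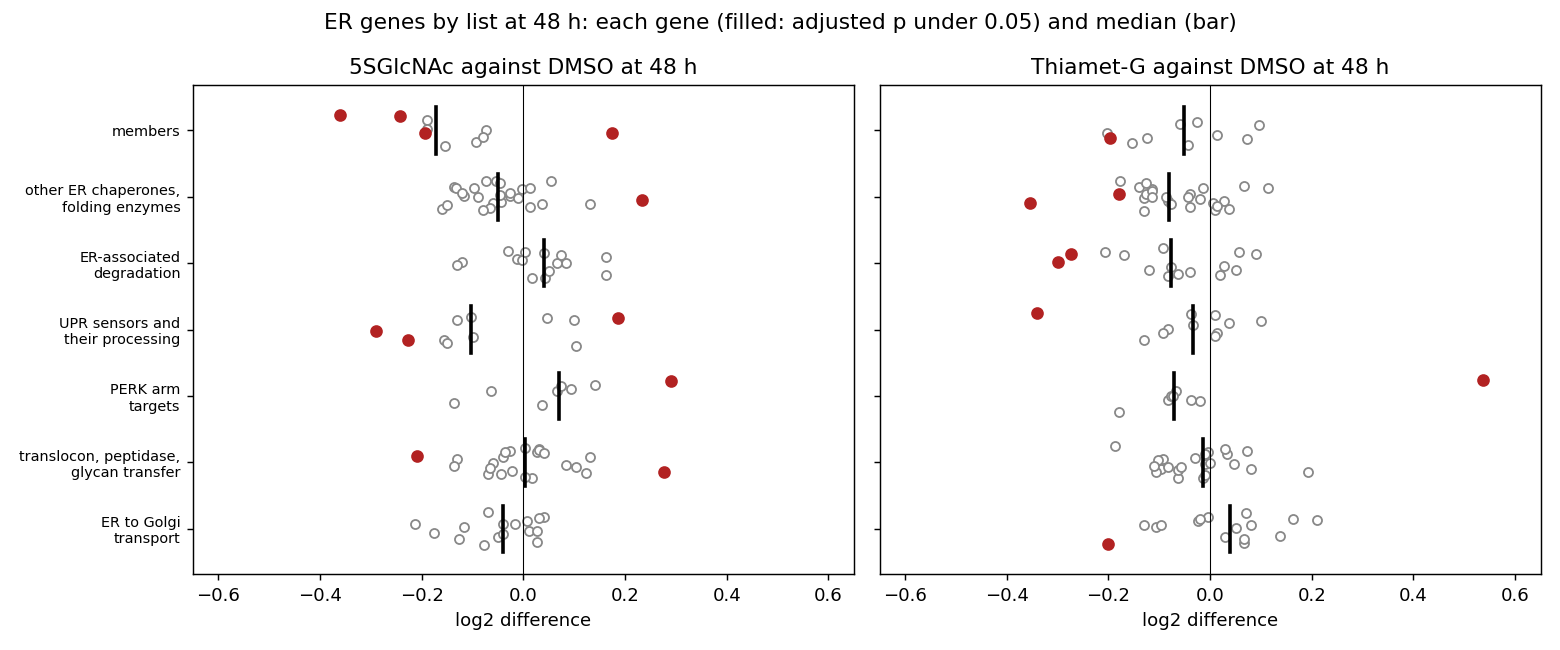
Log2 difference from DMSO at 48 h for each measured gene of the members and of 6 other ER lists, 5SGlcNAc on the left and Thiamet-G on the right; filled points have an adjusted p under 0.05 (limma) and bars mark list medians. The members' median with 5SGlcNAc, -0.17, is the lowest of the 7, and ATF3 stands apart at 0.54 with Thiamet-G. Members and lists were chosen with earlier results of these data known, so the order of medians is a description.

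Over 2 to 24 h neither inhibitor changed a member past the threshold. With 1 array per treatment and time, the 5 times stood in for replicates and time was a block. In limma's test, 0% of genes passed for 5SGlcNAc and 0% for Thiamet-G against DMSO, and 0.259% passed between the inhibitors. At an unadjusted p under 0.05 stood 524 and 1111 of 11963 genes for 5SGlcNAc and Thiamet-G, and 2 and 1 of the 10 members. The member nearest to a call was DNAJB9 with Thiamet-G. Its differences from DMSO were -0.07, -0.36, -0.18, -0.12 and -0.23 at 2, 4, 6, 8 and 24 h, lower at 5 of 5 times, with a mean of -0.19 (unadjusted p = 0.00236, adjusted p = 0.307). The widest, at 4 h, lies between the DMSO and Thiamet-G arrays with high ACTB 3′ minus 5′ signal, and the part of RNA integrity was not tested. The dimmer DNAJB9 set was lower at 4 of 5 times. CALR was lower with 5SGlcNAc at 5 of 5 times, by 0.09 on average on the log2 scale (adjusted p = 0.9996). The widest CALR difference, -0.21, was from that same DMSO array of 4 h. DNAJC3 was lower at 4 of 5 with a mean of -0.18, and HERPUD1 at 4 of 5 with a mean of -0.13, each with an adjusted p of 0.9996. For HSPA5 the mean was -0.02 with 5SGlcNAc, with a 95% interval of -0.11 to 0.069, and -0.01 with Thiamet-G, with an interval of -0.10 to 0.073. The members' unadjusted p was under 0.05 for DNAJC3 (0.0161) and HERPUD1 (0.0432) with 5SGlcNAc.

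HSP90B1 and PDIA4, which fell with 5SGlcNAc at 48 h, had mean differences of -0.01 and 0.04 over the earlier times. HSP90B1 differed from DMSO by -0.04, 0.12, 0.03, -0.07 and -0.08 in time order, and PDIA4 by 0.13, -0.05, 0.07, 0.03 and 0.01. The 5SGlcNAc effect at 48 h minus that over 2 to 24 h was -0.35 for HSP90B1 (SE 0.070, adjusted p = 0.0135) and -0.28 for PDIA4 (SE 0.067, adjusted p = 0.0390), by a limma interaction test over 24 arrays. These values are of the brighter probe set of each gene, and the dimmer sets did not share them. The dimmer HSP90B1 set averaged -0.09 over the earlier times, lower at 5 of 5, and its 48 h effect differed from that by 0.02 (adjusted p = 0.964 in the fit of all probe sets). The dimmer PDIA4 set also averaged -0.09, lower at 4 of 5, and differed by -0.06 (adjusted p = 0.859). In that fit, where 0.986% of probe sets passed, the brighter HSP90B1 set did (adjusted p = 0.0200) and the brighter PDIA4 set did not (adjusted p = 0.0572). Of all genes 1.78% passed this test, 1.41% as lower, which is 44 higher and 169 lower, or 83 and 184 with quantile normalization. PDIA4 did not pass with median centring (-0.26, adjusted p = 0.0830). XBP1 and DNAJB9 differed by -0.23 and 0.19 and did not pass (adjusted p = 0.338 and 0.197), and of the other ER genes GANAB passed at -0.27 (adjusted p = 0.0216). For Thiamet-G 0% of genes passed, while 775 genes and 2 members were at an unadjusted p under 0.05, HSP90B1 at -0.17 and SEL1L at -0.17. The 48 h arrays are a set of their own in the deposited values, so time of treatment and set cannot be told apart in this test. The labels do not say whether the sets were processed apart.

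HERPUD1 rose in the first hours and came back, in all 3 series, the vehicle included. In the DMSO series HERPUD1 was at 11.14, 11.52, 11.73, 11.49, 11.23 and 11.17 at 0, 2, 4, 6, 8 and 24 h. In the 5SGlcNAc series it was at 11.11, 11.53, 11.58, 11.39, 11.12 and 10.91, and in the Thiamet-G series at 11.07, 11.42, 11.46, 11.35, 11.26 and 11.10. Each series peaked at 4 h, and at 2, 4 and 6 h all 3 arrays lay above all 3 arrays of 0 h. HERPUD1 rose by 0.39 at 2 h (SE 0.068, adjusted p = 0.0164), 0.49 at 4 h (adjusted p = 0.00163) and 0.31 at 6 h (adjusted p = 0.0191), in limma's test with the series as a block. At 8 and 24 h it stood at 0.10 and -0.05 from 0 h (adjusted p = 0.417 and 0.746). The rise at 2 h ranked 85th of 11963 genes by size and that at 4 h 76th.

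Every series showed the HERPUD1 rise, but most of its calls needed all 3. It was 0.35 to 0.42 in the series at 2 h, 0.39 to 0.60 at 4 h and 0.28 to 0.36 at 6 h. Without the DMSO, 5SGlcNAc or Thiamet-G series the adjusted p was 0.374, 0.379 and 0.135 at 2 h, 0.166, 0.0624 and 0.0171 at 4 h, and 0.297, 0.119 and 0.107 at 6 h. The 2 arrays of 4 h with high ACTB 3′ minus 5′ signal are the highest and lowest of that time for HERPUD1. Without both, an alternative added after seeing the data, the 4 h rise was 0.52 (adjusted p = 0.0653). At 2 and 6 h, ACTB was at 0.48 to 0.95 and 0.42 to 0.61, beside 0.59 to 0.81 at 0 h. Time in culture and time since the vehicle or inhibitor was added cannot be told apart.

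DNAJB9 also rose, and was highest at 6 h in each series. It went from 10.05 at 0 h to 10.41 at 6 h with DMSO, from 10.08 to 10.34 with 5SGlcNAc and from 10.05 to 10.23 with Thiamet-G. At 24 h this brighter probe set was back at 10.09, 10.08 and 9.86. The dimmer set did not come back. It was above its 0 h array in 3 of 3 series, by 0.01 to 0.40 at 2 h, 0.25 to 0.29 at 8 h and 0.09 to 0.45 at 24 h. The 6 h arrays lay above all arrays of 0 h, and DNAJB9 rose by 0.27 at 6 h (SE 0.066, adjusted p = 0.0319, limma), higher in 3 of 3 series by 0.18 to 0.36. Both DNAJB9 probe sets passed in the fit of all probe sets, the dimmer at 0.37 (adjusted p = 0.0194). At 4 h, DNAJB9 stood at 10.30 and 10.32 in the DMSO and 5SGlcNAc series and at 9.95 with Thiamet-G. The 6 h call was lost without the DMSO series (0.22, adjusted p = 0.401), the 5SGlcNAc series (0.27, adjusted p = 0.190) or the Thiamet-G series (0.31, adjusted p = 0.0709).

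HERPUD1 was thus the 1 member of 10 called at 2 h and at 4 h, and HERPUD1 and DNAJB9 the 2 called at 6 h, all as higher. Beside this, 0.51% of genes passed at 2 h (0.209% higher, 25 up and 36 down, or 31 and 27 with median centring), 3.28% at 4 h (1.33% higher) and 4.49% at 6 h (2.27% higher). Of probe sets, 0.462%, 2.71% and 3.35% passed. At 8 and 24 h no member passed, while 6.36% and 9.97% of genes did. At an unadjusted p under 0.05 stood 0 and 2 of the 10 members, beside 2736 and 2809 of 11963 genes. PDIA6 was nearest at 24 h: from 12.04, 12.02 and 12.03 at 0 h in the DMSO, 5SGlcNAc and Thiamet-G series it stood at 12.34, 12.10 and 12.27, a difference of 0.20 that did not pass (adjusted p = 0.0583, limma). PDIA4 followed with 0.18 (adjusted p = 0.0836). Every comparison with 0 h uses the same 3 arrays of 0 h.

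HSPA5 moved little with time. In the DMSO series it was at 13.16, 13.27, 13.25, 13.36, 13.26 and 13.27. In the 5SGlcNAc series it was at 13.22, 13.23, 13.27, 13.33, 13.24 and 13.25, and in the Thiamet-G series at 13.20, 13.31, 13.25, 13.26, 13.24 and 13.28. It was above its own 0 h array in 3 of 3 series at each later time, by 0.12 on average at 6 h, with no call (adjusted p = 0.188, limma). Over the 18 arrays HSPA5 had the narrowest range of the members, 0.20, and HERPUD1 the widest, 0.83.

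The others lay between these ranges. HSP90B1 ranged over 0.32, from 11.45 in the DMSO array of 4 h to 11.77 at 24 h with Thiamet-G, CALR over 0.25 and SEL1L over 0.31. XBP1 ranged over 0.55, with its lowest level, 9.21, in the DMSO array of 4 h and its highest, 9.76, at 8 h with Thiamet-G. CALR was highest, 12.49, in that same DMSO array of 4 h. That array has the highest ACTB 3′ minus 5′ signal, 1.64, and the part of RNA integrity in these single values was not tested. DNAJC3 ranged over 0.48 and differed from 0 h by 0.17 at 4 h (adjusted p = 0.345, limma).

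**Figure D4:**
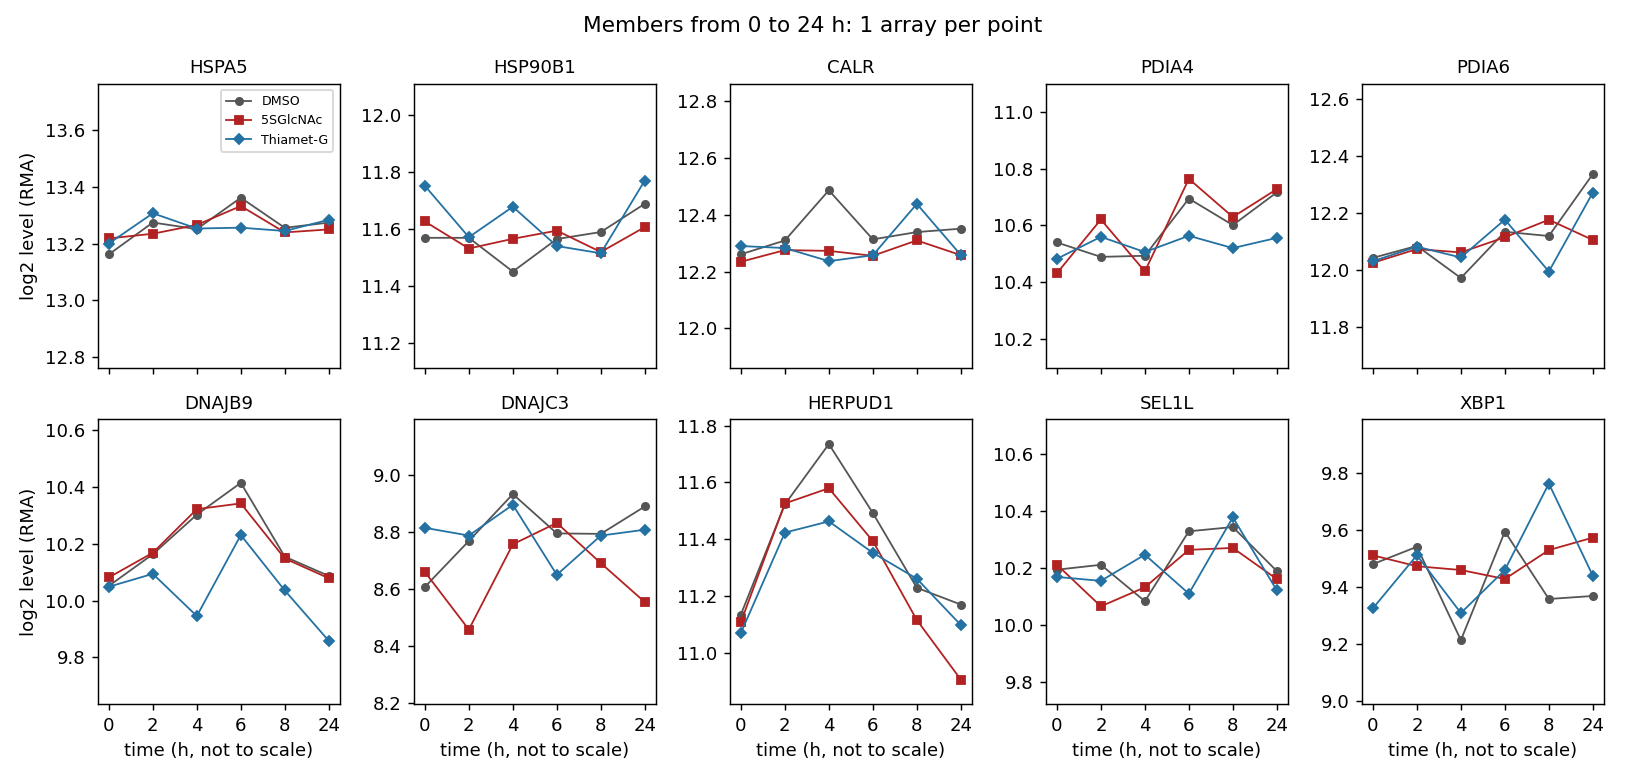
Log2 level of the 10 members at 0, 2, 4, 6, 8 and 24 h in the DMSO, 5SGlcNAc and Thiamet-G series, 1 array per point, with time not drawn to scale and every panel spanning the same number of log2 units. HERPUD1 peaks at 4 h in each series, DNAJB9 is highest at 6 h in each, and HSPA5 is nearly flat.

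Among the other ER lists, ATF3, DDIT3 and ATF5 of the 8 PERK targets rose in the first hours. ATF3 rose by 1.65 at 2 h (adjusted p = 0.0244, limma) and 1.70 at 4 h (adjusted p = 0.00837). DDIT3, or CHOP, rose by 0.32 and ATF5 by 0.28 at 4 h (adjusted p = 0.0467 and 0.0401), so 3 of 8 targets passed at 4 h and 1, ATF3, at 2 h. Beside this, 3.28% and 0.51% of all genes passed at 4 and 2 h. Without the DMSO series 0 genes of the whole set passed at 2 or 4 h, so the calls of ATF3, DDIT3 and ATF5 were lost there. At 6 h none of the 8 passed in limma's test, with 2 at an unadjusted p under 0.05. None of the 26 other chaperones passed at 2, 4 or 6 h, with 0, 1 and 3 at an unadjusted p under 0.05. None of the 15 ERAD genes passed either, with 1, 1 and 2. Of all 11963 genes, 872, 1982 and 2116 stood at an unadjusted p under 0.05 at these times. At 4 h MOGS, a glucosidase, fell by 0.21.

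Later changes were of other genes. At 8 h EIF2AK3, the sensor PERK, rose by 0.31 (adjusted p = 0.0381, limma), and SEC63 rose by 0.29. CREB3L1 and SERPINH1, the collagen chaperone, fell by 0.27 and 0.23. At 24 h DNAJC10, a J protein that reduces disulfides, rose by 0.35, ERP44 by 0.31 and UGGT1, the sensor of glycoprotein folding, by 0.27, as 3 of 26 chaperones (adjusted p = 0.0167, 0.00709 and 0.0198). Of all genes, 9.97% passed at 24 h, so this count is near the share of all genes. VCP, the ATPase that extracts ERAD clients, rose by 0.24, SEC24B by 0.24 and SAR1B by 0.22, and SSR4 fell by 0.27. Of the 9 luminal markers, 2, 2, 2, 4 and 3 fell at 2, 4, 6, 8 and 24 h, and 1 rose, at 24 h. Of all genes, 0.51%, 3.28%, 4.49%, 6.36% and 9.97% passed in either direction at these times. CDH1 fell at every time from 2 h, by 0.44 at 2 h to 0.84 at 24 h, as the luminal marker with the most calls. LUM, the 1 fibroblast marker of 6 called at 24 h, fell by 1.05 then. CDH1 and LUM were dim, at the 17.8th and 12.1st percentiles of genes over 0 to 24 h. Their part in the members' changes was not tested.

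The genes whose centred profile lay closest to that of HSPA5 were not members. Over the 18 arrays of 0 to 24 h, the root mean square difference was 0.0414 for EEF2, 0.0421 for OAZ1, 0.0426 for PTPN1, 0.0428 for CAMSAP2 and 0.0428 for HSP90AB1, beside an SD of HSPA5 itself of 0.0454. The measure separates little where the profile is this flat. Over the 9 arrays of 48 h, where the SD of HSPA5 was 0.0707, it was 0.0170 for CUX1, 0.0191 for NBN, 0.0221 for YWHAZ, 0.0226 for QKI and 0.0227 for ITGB1. Of the members, XBP1 and CALR ranked 465th and 595th of 11582 genes at 48 h, and CALR 833rd of 11949 at 0 to 24 h. HERPUD1 ranked 1044th at 48 h and 11045th at 0 to 24 h.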

How the data were processed

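The authors deposited log2 levels per probe set of Affymetrix arrays. The submitters' processing notes name RMA without a version. RMA equalises arrays processed together, so a change of most genes in one direction can be hidden. The 48 h values have 2 decimals and array medians of 7.68 to 7.76, and those of 0 to 24 h have medians of 7.43 to 7.53, so each test stayed within a set apart from the test of effects between sets. Of 22277 probe sets, 19064 name 1 gene. Each of 11963 genes was taken as its brightest such probe set over the arrays of a fit, and a second fit used all 19064. Tests were two-sided, with limma 3.58.1 in R 4.3.3 and Benjamini-Hochberg adjustment over all genes at 0.05, over 9 arrays at 48 h, 15 arrays of 2 to 24 h with time as a block, 18 arrays with the series as a block, and 24 arrays for the interaction. The number of arrays limits the precision. The fits were checked on simulated data.

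All members were named, and of each other list up to 3 genes per direction among those past the threshold. The genes most like HSPA5 had the smallest root mean square difference of centred profiles among genes with an SD of at least 0.5 times that of HSPA5. The members and lists were chosen with earlier results of these data known. Alternatives were quantile normalization, median centring, leaving out genes under the 40th percentile, probe set means, leaving out shared-sequence sets, another variance model, fewer arrays and a replicate block. Protein sequences were not used here.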

Additional observations from a re-analysis of the deposited data

Results flagged for a closer look

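The 5SGlcNAc effect on HSP90B1 differed between 48 h and the earlier times by -0.351 on the log2 scale, and that on PDIA4 by -0.280, in a limma test of the difference itself (adjusted p = 0.0135 and 0.0390). HSP90B1 was below DMSO in 3 of 3 arrays at 48 h and at 3 of 5 earlier times, and PDIA4 in 3 of 3 arrays and at 1 of 5. These are the brighter probe sets. The dimmer HSP90B1 set was lower at 5 of 5 earlier times and the dimmer PDIA4 set at 4 of 5, and their 48 h effects differed from the earlier ones by 0.02 and -0.06 with no call (adjusted p = 0.964 and 0.859), so the difference rests on 1 probe set of each gene. The 48 h arrays form a set of their own in the deposited values, so time and set cannot be told apart.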

How the results depend on the processing

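No member reversed its direction past the threshold under any alternative run, and no scaling moved the median of all genes by over 0.1. Both HSP90B1 probe sets are shared-sequence sets, so HSP90B1 was not measured in the fit that left such sets out. With 5SGlcNAc against DMSO at 48 h, 4 members passed, and 2 to 5 did when each array was left out. With Thiamet-G 1 passed. It was 0 with quantile normalization, 0 with median centring, 0 with only the arrays of the 2 groups and 0 without each array in turn, and 2 with trend and robust variance and 2 without dim genes. Between the inhibitors 5 passed, with 3 in the fit of the 2 groups alone and 3 to 5 without each array. At 2 and 6 h against 0 h, 1 and 2 members passed and 0 without each series. At 4 h 1 passed, with 0 without the DMSO or the 5SGlcNAc series and 0 without the DMSO and Thiamet-G arrays of 4 h, chosen after seeing the data. At 24 h 0 passed, with 1 under median centring and 2 with trend and robust variance. Of the 2 members whose 5SGlcNAc effect differed from earlier times, 1 passed with median centring. The cause was not tested, apart from fewer arrays giving a larger standard error. Among all genes, the counts past the threshold at 48 h were 1225 (679 to 1794 over the alternatives), 417 (101 to 949) and 1634 (926 to 2245) for the 3 comparisons in that order. Over 2 to 24 h they were 0 (0 to 0), 0 (0 to 20) and 31 (0 to 180). Against 0 h they were 61 (0 to 92), 392 (0 to 535), 537 (3 to 852), 761 (1 to 1184) and 1193 (266 to 1509) at 2, 4, 6, 8 and 24 h, and for the differences between effects 213 (208 to 349) with 5SGlcNAc and 0 (1 to 2) with Thiamet-G. The lowest at 2 to 8 h came without the DMSO series.

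Replicate numbers at 48 h gave no sign of pairing: correlations of same-numbered deviations ran from -0.33 to 0.17, and those of different numbers from -0.25 to 0.25. With 3 arrays per group this check cannot show that the arrays were not paired. With the replicate block, 2, 0 and 3 members passed for 5SGlcNAc against DMSO, Thiamet-G against DMSO and 5SGlcNAc against Thiamet-G.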
